A study of Homo sapiens with 6 samples.

Results

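IMMP2L, MACROD2, CCSER1, LSAMP, NAALADL2, DLG2, CTNNA3 and AUTS2 are 8 of the longest human genes, taken from the 20033 protein-coding genes of the RefSeq annotation (GRCh38.p14) by name, because each has been described at a common fragile site or a recurrently rearranged locus. They are between 643 kb (LSAMP) and 2173 kb (DLG2) long and cover 11.7 Mb together. Common fragile sites are chromosomal regions that break in metaphase when replication is slowed. Many hold one very long gene, replicate late in S phase and have few replication origins, so that forks must travel far and can meet transcription complexes on the same template. In ATAC-seq the Tn5 transposase cuts accessible DNA and adds the sequencing adapters there, so a peak marks a stretch of open chromatin. In a very long gene the start, where RNA polymerase is loaded, can be open, while the introns hold scattered distal elements at low density.

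The data were ATAC-seq peak lists of RKO cells, a mismatch-repair-deficient colon carcinoma line, in 2 conditions with 3 samples each, described by the study as independent experiments. The APH samples had received 0.2 µM aphidicolin, an inhibitor of the replicative DNA polymerases, for 16 h, a low dose that slows forks without stopping S phase. The control samples had received DMSO, and nothing else in the labels separates the groups. All cells were one line from a cell bank, grown at low oxygen, not sorted by cell cycle phase for this assay, and frozen before tagmentation, so each peak list averages all phases of the cycle. Every list gives the position of each peak and one value, the mean coverage of aligned fragments over the peak (signal), without scaling to the size of the library. The read depth of the samples is unknown, so values were also divided by the mean value of the sample's peaks, and this is called the relative value.

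Peaks numbered between 64511 and 77194 in the DMSO samples and between 70121 and 84510 in the APH samples, with mean values of 82.2 ± 3.55 (DMSO) and 71.2 ± 1.79 (APH) (SD, n = 3 each). On average the APH lists held more peaks of a lower value, with overlapping peak numbers and separate mean values, and each comparison in the 8 genes was read against this. A peak lay within 1 kb of 57.2% to 57.9% of all protein-coding gene starts with a known strand, against 8.41% to 9.89% of the same positions moved along the chromosome, as a check of the genome build. As a check of the cell type, 3 of 8 epithelial colon markers (EPCAM, KRT8 and CDX2) had a start peak in all 6 samples, and 4 (CDH1, VIL1, LGALS4 and CDX1) had none. Of 8 markers of blood, endothelial, fibroblast and neuronal cells, 6 had no start peak in any sample and 2 (COL1A1 and SNAP25) had one in all 6.

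The 5′ ends of the 8 genes fell into 2 classes. IMMP2L, MACROD2, CCSER1, NAALADL2, DLG2 and CTNNA3 had a peak with its midpoint within 1 kb of the 5′ end of the RefSeq gene body in all 6 samples, and LSAMP and AUTS2 had none in any. For NAALADL2 and CTNNA3 the promoter table lists no transcript start at that end, and its starts for them lie inside the gene. The 250 bases upstream of the 5′ end are shown for a pair of each class (RefSeq, GRCh38.p14, 5′ to 3′ on the strand of the gene), with each CG dinucleotide, the target of DNA methylation in promoters, in capitals. CCSER1 (chr4:90127144-90127393, plus strand) is shown because its start peak had the largest relative difference of the 6, IMMP2L (chr7:111562493-111562742, minus strand) as an open start of the same kind, AUTS2 (chr7:69598225-69598474, plus strand) as the richest in CG of the set, and LSAMP (chr3:116445488-116445737, minus strand) as the poorest.
CCSER1: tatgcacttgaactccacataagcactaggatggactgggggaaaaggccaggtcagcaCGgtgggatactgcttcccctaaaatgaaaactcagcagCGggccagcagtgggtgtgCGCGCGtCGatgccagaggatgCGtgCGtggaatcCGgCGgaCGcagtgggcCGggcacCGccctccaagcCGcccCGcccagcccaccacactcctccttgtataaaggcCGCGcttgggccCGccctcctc
IMMP2L: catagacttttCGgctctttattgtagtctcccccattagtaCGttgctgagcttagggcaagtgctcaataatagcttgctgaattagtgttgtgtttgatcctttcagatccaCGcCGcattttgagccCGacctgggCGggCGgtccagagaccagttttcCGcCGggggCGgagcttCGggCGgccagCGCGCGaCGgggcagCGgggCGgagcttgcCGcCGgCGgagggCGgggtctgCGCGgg
AUTS2: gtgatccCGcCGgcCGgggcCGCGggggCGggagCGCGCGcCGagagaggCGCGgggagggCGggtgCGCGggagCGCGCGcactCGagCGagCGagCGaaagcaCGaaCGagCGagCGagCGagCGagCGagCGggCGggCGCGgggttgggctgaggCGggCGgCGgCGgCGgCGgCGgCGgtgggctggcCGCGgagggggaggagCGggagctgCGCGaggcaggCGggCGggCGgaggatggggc
LSAMP: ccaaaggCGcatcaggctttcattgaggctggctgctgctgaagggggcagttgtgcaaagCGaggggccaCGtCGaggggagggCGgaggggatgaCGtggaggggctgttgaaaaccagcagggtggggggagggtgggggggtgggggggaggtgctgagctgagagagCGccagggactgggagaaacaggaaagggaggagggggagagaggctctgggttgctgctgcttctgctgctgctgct
The motif searched was CG, which reads the same on both strands. The window holds 18 CG in CCSER1, 24 in IMMP2L, 29 in MACROD2, 20 in DLG2, 49 in AUTS2 and 7 in LSAMP, and the table used has no sequence for the 5′ ends of NAALADL2 and CTNNA3. Of 13819 such windows over all protein-coding genes, 97.0% hold at least 1 CG, and the median number was 22 in genes with a start peak in all 6 samples and 5 in genes without one. Only 28 windows (0.203%) hold as many CG as AUTS2, and 60.7% of those genes had a start peak in all 6 samples while 28.6%, AUTS2 included, had one in none. The LSAMP window, with 7 CG, lies near the median of the genes without a start peak, although 74.9% of all windows hold at least as many.

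The density of peaks along the 8 genes was low and differed about 3-fold among them. Over all samples it was 12.9 peaks per Mb in LSAMP, 12.6 in IMMP2L, 11.6 in DLG2, 9.22 in MACROD2, 7.38 in AUTS2, 6.39 in CTNNA3, 5.07 in CCSER1 and 4.01 in NAALADL2. Each gene overlapped its neighbours in this order in its sample values, and even LSAMP, with 6.20 in its lowest sample, reached into the range of NAALADL2, with 6.56 in its highest. Those are different samples, and within each sample LSAMP was denser than NAALADL2. Summed over the 8 genes the density was 7.76 ± 1.70 per Mb in DMSO and 8.96 ± 1.98 in APH (SD, n = 3 each), below the 34.5 and 38.2 per Mb of all protein-coding genes and the 12.1 ± 1.94 and 14.2 ± 2.18 of the 307 other protein-coding genes of at least 500 kb. The 2 sparsest genes, NAALADL2 and CCSER1, had more peaks per Mb than only 8.47% and 12.7% of those 307 genes, whereas LSAMP and IMMP2L lay near their middle (55.0% and 53.1%). The 11 other long genes of fragile sites set beside them (FHIT, WWOX, LRP1B, DMD, CNTNAP2, DPYD, NBEA, DAB1, RORA, ESRRG and PARD3B) had 7.29 ± 1.06 per Mb in DMSO and 8.86 ± 1.70 in APH, within the spread of the 8 genes. FHIT and WWOX by themselves had 5.21 ± 1.17 and 6.49 ± 1.14.

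**Figure D1:**
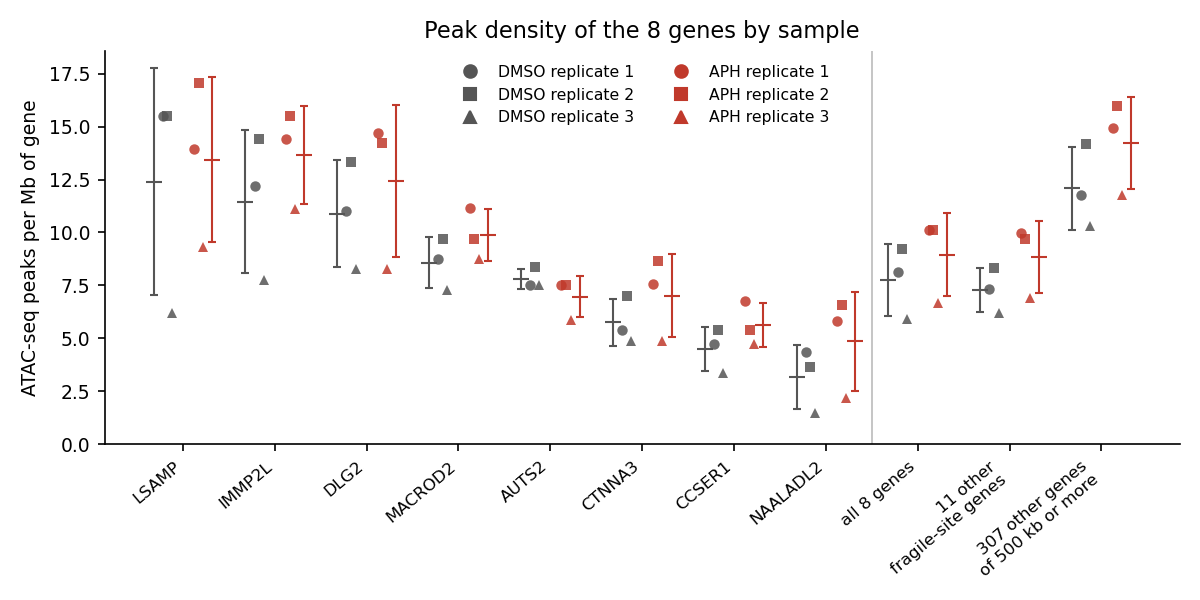
ATAC-seq peaks per Mb of gene (vertical axis) in each DMSO (grey) and APH (red) sample, with the mean and SD of the 3 samples as bars, for the 8 genes in order of density and, right of the line, for 3 groups of genes summed. NAALADL2 lies lowest at 4.01 peaks per Mb over all samples and LSAMP highest at 12.9, and in the 3 summed groups replicate 3 of each condition has the fewest peaks of that condition.

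The share of all peaks that fell in the 8 genes was the same in both conditions within the replicate spread. In the order of replicates 1 to 3, the 8 genes held 95, 108 and 69 peaks in the DMSO samples and 118, 118 and 78 in the APH samples. Of the peaks in each list these made up 0.144%, 0.140% and 0.107% in DMSO and 0.148%, 0.140% and 0.111% in APH. The conditions overlapped, and the third replicate of each was the lowest in its condition. The mean share was 0.130% ± 0.0204 (DMSO) and 0.133% ± 0.0192 (APH) (SD, n = 3 each), a log2 ratio of 0.03. The 5 other genes of at least 500 kb with the density profile most like that of the 8 genes over the 6 samples were RBFOX1, AGBL4, PTPRT, NEGR1 and CTNND2, with a root mean square log2 difference between 0.114 and 0.158.

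The peaks themselves were weak. Between 71.2% and 78.9% of the peaks in the 8 genes lay below the median value of their sample, with mean values of 49.5 ± 4.14 (DMSO) and 45.0 ± 1.61 (APH), or 0.601 ± 0.0287 and 0.633 ± 0.0106 of the mean over all peaks (SD, n = 3 each). They were narrow as well, with a median width of 320 bp in DMSO and 311 bp in APH against 355 and 341 bp over all peaks. On the log2 scale the relative value of the 8 genes together moved from -0.73 to -0.66, beside -0.65 and -0.57 in the 307 other genes of at least 500 kb and -0.70 and -0.63 in the 11 other fragile-site genes. It went from 0.27 to 0.24 over all protein-coding genes and from 0.07 to 0.02 in FHIT and WWOX.

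Peaks sharing 1 bp or more in any samples were joined into one region, which gave 160 regions in the 8 genes among 102784 over the genome. Of the 160, 52 (32.5%) had a peak in all 6 samples, against 48.8% of all regions, and 43 (26.9%) had a peak in a single sample, against 19.2%. Peaks found in APH samples only made up 34 regions (21.2%) and peaks found in DMSO samples only 16 (10.0%), while over the genome the shares were 18.5% and 7.03%. A region with peaks in all 3 APH samples and in no DMSO sample occurred once, and the reverse did not occur, where 1.11% and 0.184% of all regions were of these kinds. That region lies in DLG2 (chr11:83711106-83711498, 1917 kb from the 5′ end) and was weak, with values of 27.2, 33.4 and 24.1 in the 3 APH samples.

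**Figure D2:**
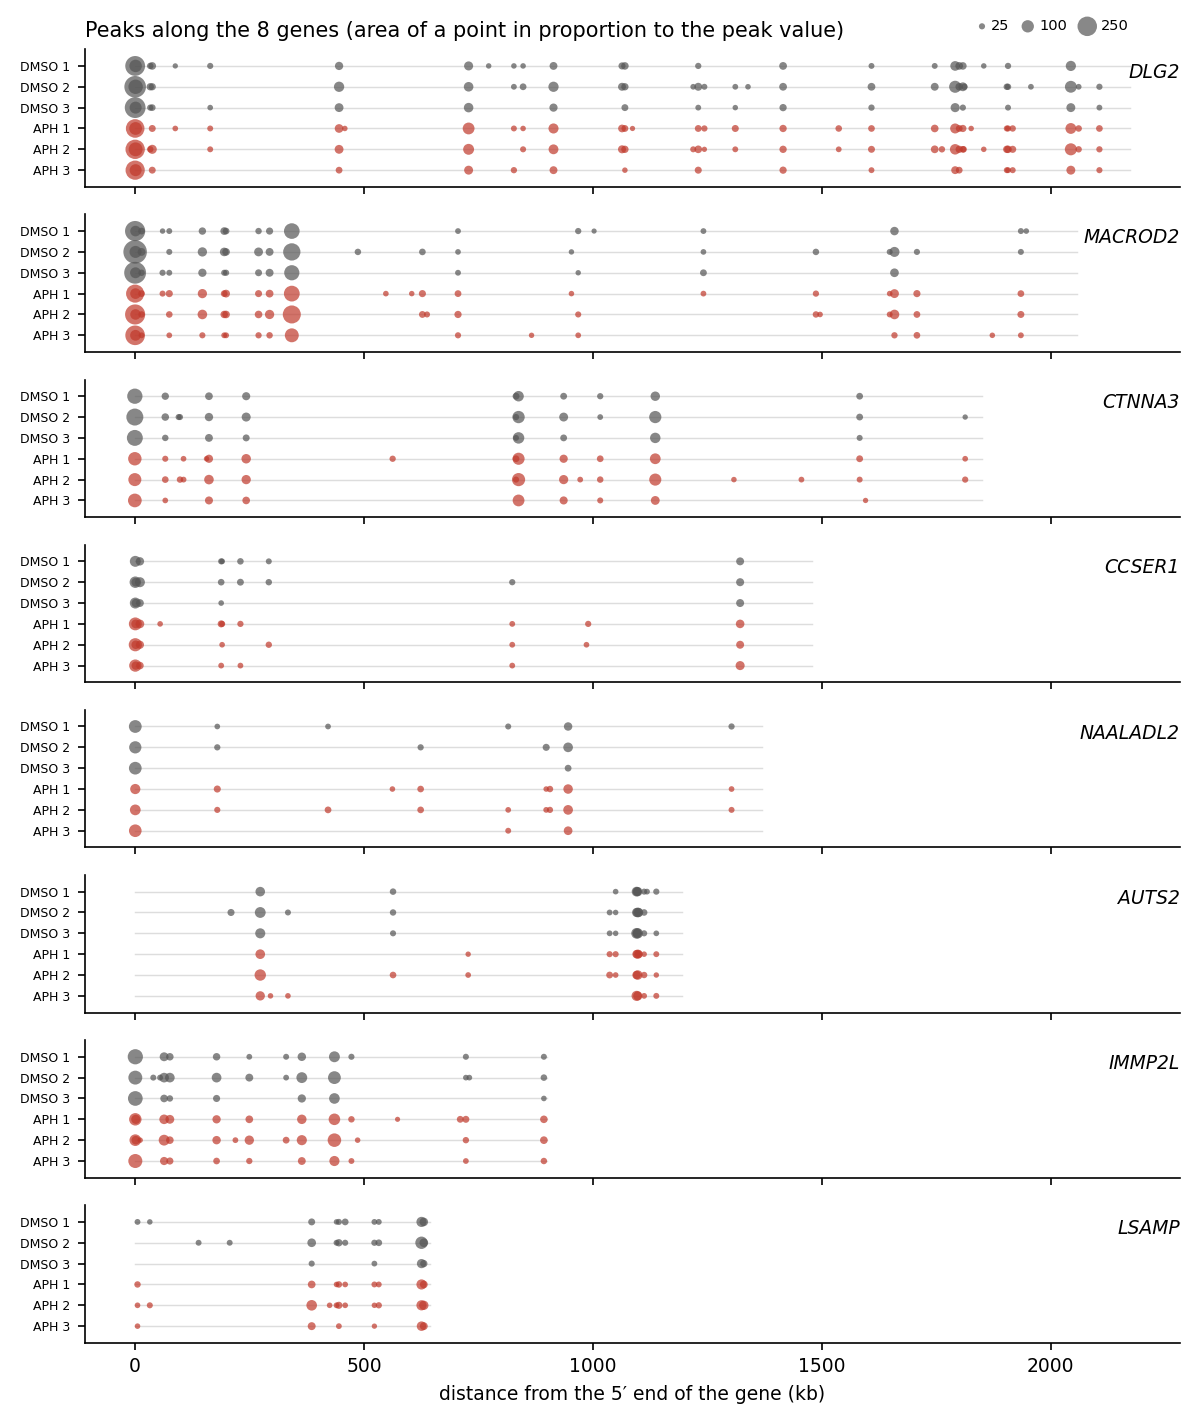
Position of every region in the 8 genes as distance from the 5′ end in kb (horizontal axis), 1 row per sample, with the area of each point in proportion to the peak value in that sample and a grey line for the length of the gene. The large points at 0 kb are the start peaks of 6 genes, and the rows of AUTS2 and LSAMP begin without one.

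Regions were spread over the whole length of the genes, and 83 of 160 (51.9%) lay in the part nearer the 5′ end. That held for 21 of 30 regions in MACROD2, 8 of 12 in CCSER1, 13 of 20 in IMMP2L, 11 of 20 in CTNNA3, 5 of 10 in NAALADL2, 16 of 40 in DLG2, 5 of 15 in AUTS2 and 4 of 13 in LSAMP. Each gene also had a long stretch with no region in any sample. CCSER1 had the longest, 532 kb or 36.0% of the gene, between 292 and 824 kb from its 5′ end. The others ran to 357 kb in NAALADL2, 320 kb in CTNNA3, 309 kb in AUTS2, 282 kb in DLG2, 246 kb in MACROD2, 179 kb in LSAMP and 163 kb in IMMP2L.

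Of the genes for synaptic and junctional proteins, DLG2 (chr11:83455012-85628373, minus strand) encodes a scaffold of the postsynaptic density that anchors receptors and channels. It had 24, 29 and 18 peaks in the DMSO samples and 32, 31 and 18 in the APH samples, the most of the set, and the conditions overlapped. Its start was open on both sides of the 5′ end, with a stronger region at chr11:85628014-85628815 and a weaker one at chr11:85627240-85627612, and the start of TMEM126B lies within 2 kb of both, so the 2 promoters cannot be told apart here. The mean value of the start peaks was 181, 222 and 190 in DMSO and 168, 187 and 169 in APH, or 2.40 ± 0.181 and 2.45 ± 0.0933 times the mean of all peaks. This ratio did not differ beyond the replicate spread (log2 difference 0.03, exact permutation p = 0.6). Of 9 annotated DLG2 transcript starts in the promoter table, 2 had a peak in all 6 samples, both at the 5′ end, 2 further ones (1311 and 1903 kb downstream) had a peak in 4 samples, and 5 had none. The strongest regions outside the start lay 2044 and 728 kb from it. The second of these, chr11:84899733-84900131, had values of 54.1, 60.6 and 59.6 in DMSO and 92.0, 78.5 and 52.6 in APH, a relative log2 difference of 0.52 ± 0.212 (SE) that did not pass the adjusted test (limma, adjusted p = 0.27) and ranged from 0.335 to 0.749 with one sample left out.

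CTNNA3 (chr10:65912523-67763594, minus strand) encodes alpha-T-catenin, which links cadherins to actin in heart muscle and other tissues. It had 10, 13 and 9 peaks in DMSO and 14, 16 and 9 in APH. The table places its transcript starts 97.9 and 67.4 kb inside the gene, with a peak within 1 kb in 2 and in 0 samples. Within 2 kb of the second of these starts, a weak region 65.7 kb from the 5′ end had a peak in every sample. The peak at the 5′ end of its gene body, chr10:67763871-67764806, had values of 154, 190 and 167 in the DMSO samples and 119, 112 and 124 in the APH samples. Every APH sample was below every DMSO sample, as in 40.8% of all starts, and this stayed so on the relative scale, as in 11.5%, where the start stood at 2.07 ± 0.143 times the sample mean (DMSO) and at 1.66 ± 0.113 (APH). The log2 difference was -0.32 (exact permutation p = 0.1, the smallest that 3 against 3 allows), and 5.39% of all starts had a difference as low or lower. Inside the gene, the region at the start of LRRTM3 (chr10:66925825-66926248), a nested gene for a synaptic adhesion protein, differed the other way, with values of 72.6, 100 and 86.8 in DMSO and 96.5, 114 and 91.7 in APH. Its relative log2 difference was 0.43 ± 0.155 (SE), with an unadjusted p of 0.015 and an adjusted p of 0.23 (limma). The next strongest region, chr10:66627150-66627551, gave 58.5, 98.2 and 71.8 against 76.3, 96.7 and 51.4, and the conditions overlapped.

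LSAMP (chr3:115802374-116445487, minus strand), a neuronal adhesion protein of the immunoglobulin family held in the membrane by a lipid anchor, is the shortest of the 8 genes and the densest. It had 10, 10 and 4 peaks in DMSO and 9, 11 and 6 in APH. No sample had a peak within 1 kb of its 5′ end, and its 2 strongest regions lay at the opposite end, 626 and 631 kb from the 5′ end. The stronger, chr3:115819766-115820168, had values of 68.2, 101 and 55.9 in DMSO and 68.4, 68.8 and 59.6 in APH. A weaker region at chr3:116059673-116060101, chosen after its values were seen, gave 32, 49.5 and 24.8 against 39.1, 73.9 and 41.7, a relative log2 difference of 0.73 ± 0.274 (SE) with overlapping samples and an adjusted p of 0.24 (limma), and a range from 0.466 to 0.970 with one sample left out.

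Of the genes for enzymes or enzyme relatives, MACROD2 (chr20:13995516-16053197, plus strand) encodes a macrodomain protein that removes ADP-ribose from proteins. It had 18, 20 and 15 peaks in DMSO and 23, 20 and 18 in APH. Its start held the strongest region of the 8 genes (chr20:13995068-13995728, also within 2 kb of the start of SEL1L2), with values of 268, 364 and 314 in DMSO and 216, 266 and 253 in APH. As deposited, every APH sample was below every DMSO sample there, a pattern of 40.8% of all starts. The mean over its 2 or 3 start peaks was 2.42 ± 0.258 (DMSO) and 2.0 ± 0.294 (APH) times the sample mean, and on this relative scale the samples overlapped (log2 difference -0.28, exact permutation p = 0.2). The number of start peaks was 2 in every DMSO sample and 3, 2 and 3 in the APH samples, and the 2 start regions by themselves had relative log2 differences of -0.15 ± 0.117 and 0.07 ± 0.160 (SE), which ranged from -0.226 to -0.0691 and from 0.0317 to 0.155 with one sample left out. The strongest region outside the start, chr20:14337423-14337926, lay at the start of FLRT3, a nested gene for a receptor of cell adhesion and axon guidance, with values of 161, 197 and 152 in DMSO and 164, 214 and 128 in APH. The following one, chr20:15654110-15654546, gave 47.6, 66.5 and 49.7 against 52, 60.9 and 26.4, and both sets overlapped. 2 weak regions chosen after their values were seen lay 74.5 and 705 kb from the 5′ end and stood higher in every APH sample on the relative scale, with log2 differences of 0.44 ± 0.190 and 0.62 ± 0.179 (SE) and adjusted p of 0.29 and 0.18 (limma). With one sample left out, the first ranged from 0.285 to 0.597. The second annotated transcript start of MACROD2, 1201 kb downstream, had no peak in any sample.

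IMMP2L (chr7:110662644-111562492, minus strand) encodes a subunit of the inner mitochondrial membrane peptidase, which trims the leader sequences of proteins of the intermembrane space. It had 11, 13 and 7 peaks in DMSO and 13, 14 and 10 in APH. Its start peak (chr7:111561514-111562865), which covers the sequence printed above, had values of 152.5, 128 and 143 in DMSO and 102, 89.9 and 130 in APH. The ratio to the mean of all peaks was 1.72 ± 0.225 and 1.51 ± 0.298, with overlapping samples (log2 difference -0.20, exact permutation p = 0.4). LRRN3, a nested gene for a leucine-rich repeat protein of neurons, had a weak peak near its start in 1 DMSO and 2 APH samples, with values between 22.8 and 27.6. The 2 strongest regions outside the start, 435 and 364 kb from it, had values of 78.4, 108 and 74.6 against 88.1, 121 and 67.6, and of 47.2, 77.5 and 44.9 against 58.9, 67.5 and 40.6. Both overlapped between the conditions. A weak region 893 kb from the 5′ end, near the 3′ end and chosen after its values were seen, had 23.9, 28.1 and 20.7 in DMSO and 37.7, 38.7 and 27.4 in APH. Its relative log2 difference was 0.70 ± 0.200 (SE), with an unadjusted p of 0.0035 and an adjusted p of 0.18 (limma).

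NAALADL2 (chr3:174440982-175810548, plus strand), a relative of the glutamate carboxypeptidases, was the sparsest gene, with 6, 5 and 2 peaks in DMSO and 8, 9 and 3 in APH. The one transcript start that the promoter table gives for it lies 418 kb inside the gene and had no peak in any sample. Only 2 of its regions were found in every sample. The first, at the 5′ end of its gene body (chr3:174440691-174441708, within 2 kb of the start of LOC105374226), had values of 108, 98.9 and 106 in DMSO and 68.4, 76.0 and 105 in APH. The third APH sample stood with the DMSO samples and the other two below them, so that the ratio to the mean of all peaks was 1.27 ± 0.108 in DMSO and 1.17 ± 0.270 in APH (log2 difference -0.14, exact permutation p = 0.5). The other region, 946 kb from the 5′ end, gave 47.1, 61.4 and 30.5 against 59.2, 61.9 and 49.8.

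CCSER1 (chr4:90127394-91605295, plus strand), a coiled-coil serine-rich protein linked to the completion of cell division, had 7, 8 and 5 peaks in DMSO and 10, 8 and 7 in APH. Its start peak (chr4:90127147-90128225), which covers nearly all of the sequence printed above, was the weakest of the 6 open starts in DMSO. The values were 79.1, 86.7 and 79.6 in the DMSO samples and 110, 114 and 99.4 in the APH samples. Every APH sample was above every DMSO sample both as deposited and relative to all peaks, a direction seen in 0.647% and 4.93% of the 10811 protein-coding genes with a start peak in all 6 samples, whereas 40.8% and 11.5% showed the opposite. The start stood at 0.996 ± 0.0321 times the mean of all peaks in the DMSO samples and at 1.51 ± 0.0999 in the APH samples (SD, n = 3 each), a log2 difference of 0.60 (exact permutation p = 0.1, the smallest possible). Of the 10811 starts, 57 (0.527%) had a difference as large or larger. In the fit over all 50150 shared regions the same region had a relative log2 difference of 0.60 ± 0.143 (SE). Its unadjusted p was 0.00091, and it did not pass the adjusted test (limma, adjusted p = 0.18). It passed only with replicate number as a block in the fit, as given with the processing. With peaks within 2 kb of the 5′ end in place of 1 kb the log2 difference was 0.37, and with the value multiplied by the peak length it was 0.32. A second, weaker region lay 1.2 kb from the 5′ end in 5 samples with values between 45.2 and 51.2. The 2 strongest regions away from the start lay 10.4 and 1322 kb from it, with values of 46.3, 65.9 and 40.3 against 49.6, 44 and 37.9, and of 41.6, 42.5 and 42.0 against 48.5, 41.7 and 54.0.

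AUTS2 (chr7:69598475-70793506, plus strand), a nuclear protein that joins a Polycomb complex and activates transcription in developing neurons, had 9, 10 and 9 peaks in DMSO and 9, 9 and 7 in APH. It was the only one of the 8 genes with fewer peaks on average in APH than in DMSO, at 8.33 ± 1.15 against 9.33 ± 0.577. Its share of all peaks was lower in every APH sample than in every DMSO sample, a pattern of 9.46% of the 2389 genes tested, with the reverse in 5.44%, and its log2 difference was -0.33 ± 0.125 (SE, limma, unadjusted p = 0.018, adjusted p = 0.50). Its peaks lay far from the 5′ end. The strongest shared region, chr7:69871503-69871914, lay 273 kb downstream, with values of 60.4, 77.4 and 66.9 in DMSO and 61.4, 85.7 and 57.2 in APH. The following one, chr7:70696287-70696682, lay 1098 kb downstream within 2 kb of the start of LOC107986709, with 56.2, 63.0 and 69.7 against 55.8, 59.2 and 55.3. Both overlapped between the conditions.

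**Figure D3:**
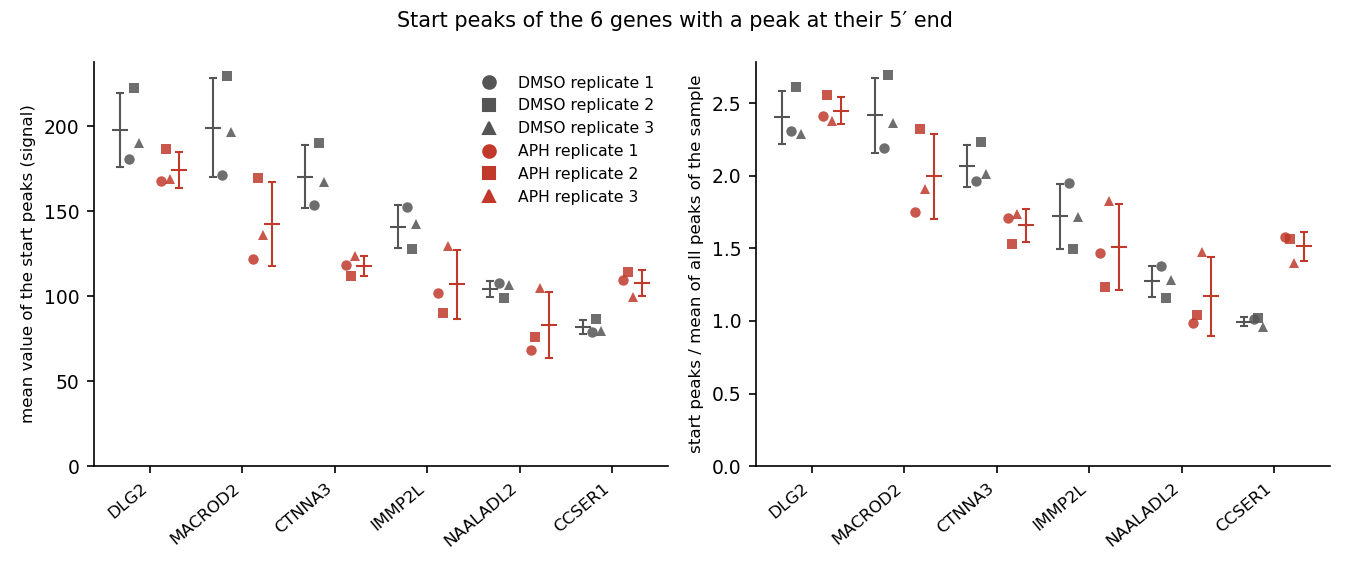
Mean value of the start peaks (left, signal as deposited) and their ratio to the mean of all peaks of the sample (right) in each DMSO (grey) and APH (red) sample, with the mean and SD of 3 samples, for the 6 genes with a peak within 1 kb of the 5′ end. CCSER1 lies higher in all APH samples in both panels, CTNNA3 lies lower in both, and the ratios of the other 4 genes overlap.

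Over all protein-coding genes, 10811 of 19671 with a known strand (55.0%) had a start peak in all 6 samples and 39.9% had none in any. Among the 307 other genes of at least 500 kb these were 89 (29.0%) and 203 (66.1%), and among the 11 other fragile-site genes 6 and 5, beside 6 and 2 of the 8 genes described here. The median start moved by -0.06 on the relative log2 scale and by -0.27 as deposited, which is the reference for each difference given above. DLG2 and CCSER1 lay above this median and the other 4 genes below it on the relative scale, and as deposited CCSER1 alone of the 6 was higher in APH.

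**Figure D4:**
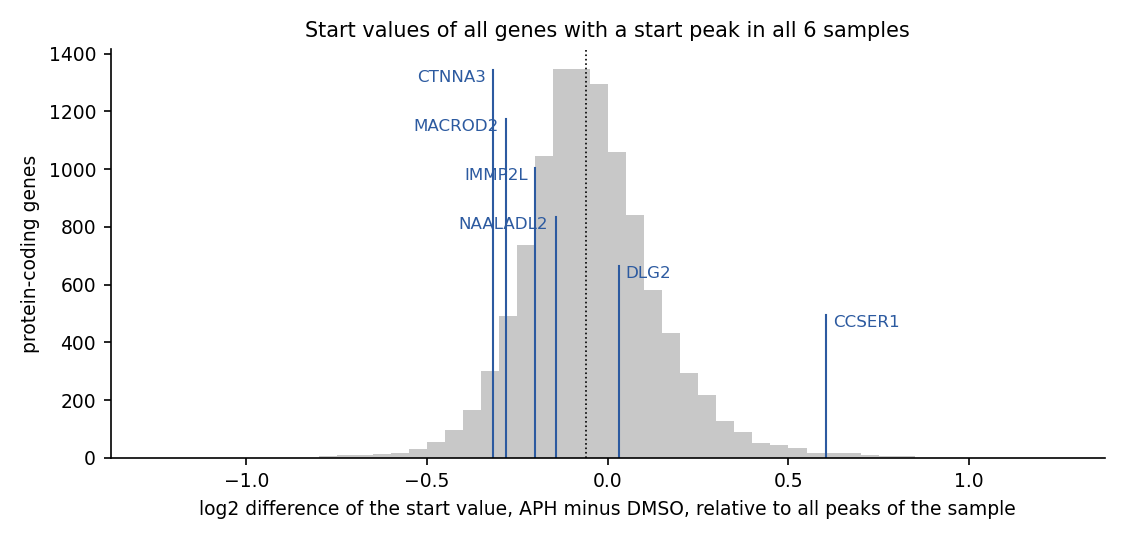
Number of protein-coding genes (vertical axis) by the log2 difference of their start value between APH and DMSO relative to all peaks of the sample (horizontal axis), for the 10811 genes with a start peak in all 6 samples, with the median dotted and the 6 genes marked by lines. CCSER1, at 0.60, lies in the right tail, and CTNNA3, at -0.32, at the left edge of the bulk.

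Across genes, neither peak number nor peak value passed the adjusted test in any of the 8. Peak number was tested in 2389 genes with a mean of at least 5 peaks, all 8 included, and 0 passed at an adjusted p of 0.05 in either direction (limma, 0% called). At an unadjusted p under 0.05, 3.68% of genes were higher and 4.98% were lower, and AUTS2 was the single member among them. The other 7 genes had log2 differences between -0.02 (LSAMP) and 0.33 (NAALADL2), with SE between 0.106 and 0.285, around a median of -0.04 over all genes tested. With one sample left out, that of NAALADL2 ranged from 0.0066 to 0.668. The 248 other genes of at least 500 kb in this test had a median of 0.04. Of these, 9.27% were higher and 3.63% lower at an unadjusted p under 0.05 (limma). Mean peak value was tested in 4967 genes with at least 3 peaks in every sample, which left out NAALADL2. Again 0 passed the adjusted test, with 10.2% of genes higher and 2.56% lower at an unadjusted p under 0.05 and none of the 7 genes among them. All 7 had relative log2 differences above 0, from 0.01 in CTNNA3 to 0.20 ± 0.0993 in CCSER1 (SE, adjusted p = 0.42), with a median of 0.09 against 0.06 over all genes tested, of which 3173 of 4967 were above 0. Of the other genes of at least 500 kb, 223 of 266 were above 0, with a median of 0.13. As deposited, which shifts every gene by the same amount, all 7 lay below 0, from -0.01 in CCSER1 to -0.19 in CTNNA3, as did 4083 of the 4967 genes.

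Away from the starts the pattern was more even. The mean relative value of peaks outside the start was higher on average in APH than in DMSO in all 8 genes, as in 251 of 299 other genes of at least 500 kb with such peaks in every sample and in 8 of the 11 other fragile-site genes. It went from 0.384 ± 0.0385 to 0.452 ± 0.0539 in NAALADL2, from 0.498 ± 0.0368 to 0.597 ± 0.0923 in IMMP2L and from 0.517 ± 0.00879 to 0.579 ± 0.00450 in CTNNA3 (SD, n = 3 each). As deposited, 6 of the 8 were lower in APH on average, IMMP2L and NAALADL2 being the exceptions, and these means were not tested one by one. In CTNNA3, IMMP2L, MACROD2 and NAALADL2 the start was lower on average in APH on the relative scale while the remaining peaks were higher. The median start over all protein-coding genes with a start peak in every sample also moved by -0.06. The share of other genes with such a split was not counted.

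Among the 52 regions present in every sample, 9 (17.3%) were above 0 and 1 (1.92%) below it with an unadjusted p under 0.05, a bound that 14.7% and 1.15% of all 50150 shared regions met. None passed the adjusted test in this fit, which left out replicate number (limma, 0 of 50150 in either direction). With replicate number as a block, regions did pass, among them the CCSER1 start, as given with the processing. The samples of the 2 conditions did not overlap in 8 regions that were higher and 1 that was lower in APH on the relative scale, beside 17.3% and 3.26% of all shared regions. The median relative log2 difference was 0.18 in the 52 regions and 0.15 over all. With values as deposited, 3 of the 52 regions (5.77%) were higher and 3 (5.77%) lower at an unadjusted p under 0.05 (limma). Over all shared regions 1235 (2.46%) were higher and 5062 (10.1%) lower. The medians were -0.03 in the 52 regions and -0.06 over all. The 9 regions higher in APH lay 2 each in MACROD2 and CTNNA3 and 1 each in IMMP2L, CCSER1, LSAMP, NAALADL2 and DLG2, and the region lower in APH was the start of CTNNA3. Only the CCSER1 region of the 9 was a start of one of the 8 genes.

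Relative differences over the genome followed the strength of the region. When all shared regions were put into 5 groups of equal size by their mean relative value, the median log2 difference fell from 0.29 in the weakest to 0.25, 0.17, 0.08 and -0.02 in the strongest. The 8 genes had 16, 17, 9, 6 and 4 regions in these groups, and their medians there were 0.12, 0.26, 0.07, 0.23 and -0.09. At a given strength the regions of the 8 genes were spread on both sides of the median of all regions.

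**Figure D5:**
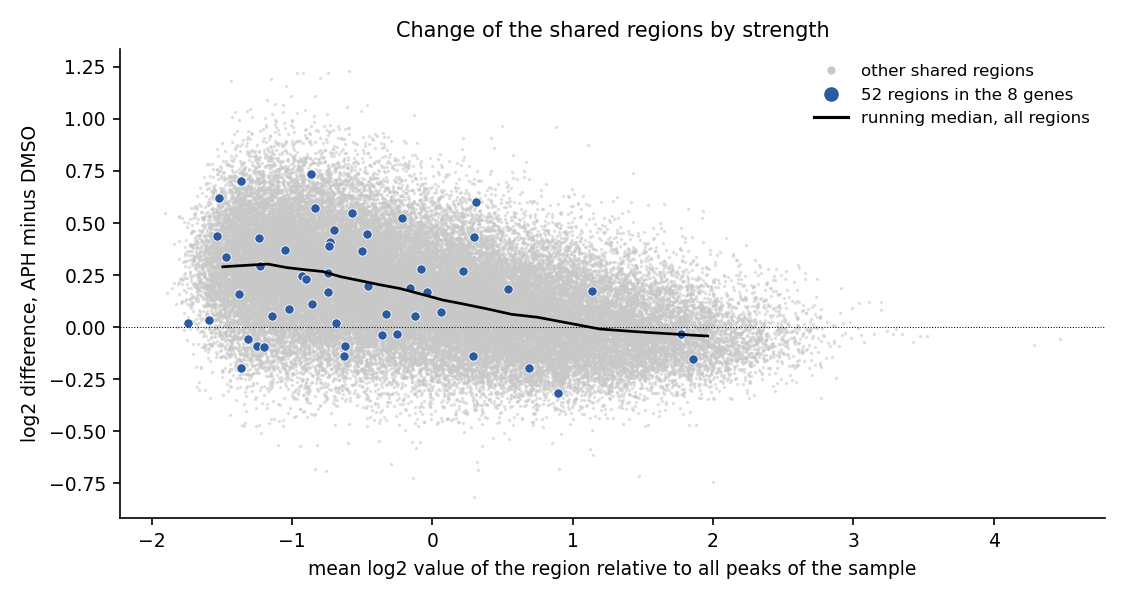
Log2 difference between APH and DMSO of the relative value (vertical axis) against the mean log2 relative value (horizontal axis) of the shared regions, with the 52 regions of the 8 genes in blue, other regions in grey and the running median of all 50150 regions as a line. The blue points lie on both sides of the line, which falls with strength, the median being 0.29 in the weakest of 5 groups and -0.02 in the strongest.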

How the data were processed

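Per the labels and the study's methods, ATAC-seq reads of 3 DMSO and 3 APH samples of RKO were aligned to hg38 with BWA 0.7.12, and only uniquely mapped matched pairs without duplicates were kept. Coverage was summed in bins of 32 nt from alignments lengthened to 200 bp, and peaks were called in each sample with MACS2 2.1.0. No shift to the transposase cutting site is named. The authors deposited 1 peak list per sample, with the signal, the mean coverage over the peak, in the last of 4 columns. The depth is unknown, so no counting interval is given.

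A peak was assigned to a gene when its midpoint lay in the RefSeq gene body (GRCh38.p14) or within 1 kb of it. Exons were not used here. The start is the 5′ end of the gene body, with the strand from the RefSeq promoter table (15842 genes) or, by symbol, from GENCODE (3829 genes, strand only), and 362 genes had none. For start values an exact permutation test (two-sided) was used, whose smallest p is 0.1. Across all features limma 3.58.1 (R 4.3.3) was used with an intensity trend and Benjamini-Hochberg adjustment at 0.05, on log2((peaks + 1)/peaks of the sample) or on log2(value + 1) minus log2 of the mean over all peaks of the sample, where the + 1 understates the change of low values. A region with several peaks in a sample took their length-weighted mean. The limma code was first tested on simulated data. Python 3.11.15 with numpy 2.4.6, pandas 2.3.3 and matplotlib 3.10.9 was used.

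Named were all 8 genes, their start regions, the 2 strongest other shared regions of each (NAALADL2 has 1), 11 comparison genes (others of that list are not reported here) and the 5 genes of most similar density. Also named, outside this rule and after their values were seen, were 4 weak regions in IMMP2L, MACROD2 and LSAMP. The same holds for the DLG2 region with peaks in APH samples only and the peak near the start of LRRN3. It also holds for the second region near the CCSER1 start and the weak region near a CTNNA3 transcript start. Members and lists were chosen with earlier results of these data known. Alternatives covered scaling, pseudocount, filters, gene bounds, start window, region overlap, a replicate block and each sample left out in turn. Replicate numbers were not taken as pairs.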

Additional observations from a re-analysis of the deposited data

How the results depend on the processing

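The depth of the libraries is not known and limits every value as deposited, and with 3 samples a condition the exact permutation test of a start could not go below p = 0.1. In 55 results under alternative settings, 402 of 451 values kept their direction and side of the threshold or stayed within the stated spread. With a sample left out, 294 of 318 did. The cause of the other changes was not tested. No gene or region passed the threshold in the main fits, so a loss of passing could not occur. Start values were judged by direction alone. With genes of a mean of at least 2 peaks 2 genes passed for peak number, with values as deposited 13 genes passed for peak value, none of them one of the 8, and with peaks at or above the median value 262 regions had peaks in all APH and no DMSO samples in place of 1136. Leaving out a sample gave between 0 and 204 shared regions, 204 without APH replicate 3 and 3 without DMSO replicate 2, and 0 genes for peak number and for peak value.

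Whether replicate numbers pair the samples could not be decided, and no label names a shared batch. Same-numbered deviations over shared regions correlated at -0.01, 0.48 and 0.52 (0.00, 0.23 and 0.30 for peak number, -0.01, 0.34 and 0.37 for peak value). DMSO replicates 2 and 3 correlated best with their own number, and DMSO replicate 1 did not. Deviations from a mean of 3 samples can be small in a true pair, so the low value for replicate 1 cannot decide it. With the replicate block, 0 genes passed for peak number, 4 for peak value and 7413 shared regions, 6828 of them higher in APH, including the CCSER1 start region (adjusted p = 0.0031) and 8 other named regions. Without the block the adjusted p of the CCSER1 region lay between 0.14 and 0.33 over the other settings and between 0.054 and 0.62 with a sample left out.

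Directions of log2 differences reversed as follows, with regions named by their distance from the 5′ end. Peak number as counted gave 0.158 in LSAMP and 0.165 in DLG2, and with equal peak numbers it gave -0.031 in MACROD2, -0.226 in CCSER1 and -0.210 in CTNNA3. Peak value as deposited gave -0.0952 in IMMP2L, -0.169 in MACROD2, -0.011 in CCSER1, -0.0335 in LSAMP, -0.117 in DLG2, -0.195 in CTNNA3 and -0.115 in AUTS2. Relative to the median it gave -0.0285 in MACROD2 and -0.0545 in CTNNA3, and with equal peak numbers -0.0053 in IMMP2L. Regions as deposited gave -0.0075 in IMMP2L (364 kb), -0.133 and -0.0346 in MACROD2 (0.756 and 342 kb), -0.186 in CCSER1 (10.4 kb), -0.152 in LSAMP (626 kb), -0.0221 in DLG2 (0.947 kb), -0.0389 in CTNNA3 (1136 kb), and -0.0185 and -0.143 in AUTS2 (273 and 1098 kb). Relative to the median, the same regions of CCSER1, LSAMP and AUTS2 (1098 kb) gave -0.0461, -0.0124 and -0.0027. After quantile normalization the regions gave -0.023 in IMMP2L (364 kb), -0.0845 in MACROD2 (0.756 kb), -0.235 in CCSER1 (10.4 kb), -0.138 and -0.0017 in LSAMP (626 and 631 kb) and -0.135 in AUTS2 (1098 kb). The DLG2 start gave -0.177 as deposited and -0.0285 as value times length.

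With each sample left out in turn, directions also reversed for small differences. Peak number ranged from -0.349 to 0.205 in LSAMP, from -0.139 to 0.171 in DLG2, from -0.0994 to 0.178 in IMMP2L, from -0.0519 to 0.0857 in MACROD2, from -0.0030 to 0.194 in CCSER1 and from -0.0325 to 0.216 in CTNNA3. Peak value ranged from -0.0219 to 0.0817 in MACROD2 and from -0.0319 to 0.050 in CTNNA3. The regions ranged from -0.303 to 0.264 in MACROD2 (1659 kb), from -0.136 to 0.194 in CCSER1 (10.4 kb), from -0.141 to 0.262 in LSAMP (626 kb) and from -0.0188 to 0.410 in CTNNA3 (1136 kb), and the DLG2 start ranged from -0.0041 to 0.0915. The log2 ratio of the summed share of the 8 genes ranged from -0.107 to 0.153, and with equal peak numbers it was -0.156. Without reversing, peak number ranged from 0.0066 to 0.668 in NAALADL2, and the starts ranged from -0.347 to -0.0638 in IMMP2L and from -0.326 to -0.0336 in NAALADL2.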
